A study of Mus musculus with 39 samples.

Results

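The Rab family was examined in 39 single cells sorted by GFP from the liver of adult Krt19CreERT/Rosa26CAG-EGFP mice. Every symbol beginning with Rab and a digit was taken, which gave 43 of the 10061 measured symbols and 53 of 13568 transcripts. By name 37 of the 43 are Rab GTPases. The other 6 are proteins that act on Rabs or bind them, namely Rab3gap1, Rab3gap2, Rab3ip, Rab11fip1, Rab11fip2 and Rab11fip5, so the family name holds for most but not all members. The name pattern takes no account of levels, but the members were chosen with earlier results of these data known.

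In these mice an inducible Cre is driven by Krt19, a keratin of bile duct epithelium, and switches on a GFP reporter, so that green cells are Krt19-expressing cells or their descendants. All 39 cells form 1 group in the labels, with no untreated or control group. The number of animals, their age in weeks and sex, the induction schedule and the time after it were not given in the sources used here. Cells without a named animal are not replicates, so values are given per cell and no test between cells was made.

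Rab proteins are small GTPases that mark membranes inside the cell. Bound to GTP they sit on a given compartment and recruit effectors, such as tethers and motors, that move or dock vesicles; exchange factors load the GTP and GTPase activating proteins help remove it. In liver epithelium this traffic sorts plasma proteins into secretion, takes up ligands by endocytosis and keeps the apical membrane, at the bile canaliculus or duct lumen, apart from the basolateral one.

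Several Rabs are close paralogs, and the similarity bears on how reads are assigned between them. Below are coding sequences of 3 pairs of paralogs at their longest identical run, from GENCODE M21 transcripts of the GRCm38 build, with the bases that differ between the members of a pair in capitals. Positions count from 1 at the start codon, and 60 bases are shown for each gene. The Rab1 and Rab1b stretches start at coding positions 296 and 287 and differ at 7 bases.
Rab1: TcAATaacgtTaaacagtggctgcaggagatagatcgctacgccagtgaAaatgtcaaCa
Rab1b: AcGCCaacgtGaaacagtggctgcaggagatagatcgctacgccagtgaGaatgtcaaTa
The Rab5a and Rab5b stretches both start at position 439 and differ at 6 bases.
Rab5a: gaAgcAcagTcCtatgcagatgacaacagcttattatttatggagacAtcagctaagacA
Rab5b: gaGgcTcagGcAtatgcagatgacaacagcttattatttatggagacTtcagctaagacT
The Rab11a and Rab11b stretches both start at position 1 and differ at 10 bases.
Rab11a: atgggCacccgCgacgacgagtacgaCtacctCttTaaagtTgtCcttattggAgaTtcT
Rab11b: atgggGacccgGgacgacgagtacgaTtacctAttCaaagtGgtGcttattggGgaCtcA

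The longest identical coding run was 38 bases for Rab1 and Rab1b, 35 for Rab5a and Rab5b and 14 for Rab11a and Rab11b. Over 16 paralog pairs it ranged from 11 to 38 bases, and 2 pairs reached 35. Other genes shared more sequence with some members. In 35-base windows read on both strands, 12 of the 43 members shared none with transcripts of another gene, and 13 shared over 10% of their windows. The largest shares were 86.5% for Rab43 and 81.9% for Rab4b, both with predicted genes, 75.1% for Rab2b, and 50.9% for Rab24 with its overlapping neighbour Prelid1. Rab3gap2 shared 28.7%, nearly all with Iars2, and Rab6a 23.1%, mostly with Mrpl48. The level of these members is therefore uncertain where the reads could be split, and the read length was not given in the sources used here. Prelid1, Iars2 and Mrpl48 were among the measured symbols, and the main partners of Rab43, Rab4b and Rab2b were not.

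Values are called CPM and are the deposited library-scaled values on a linear scale. A gene is called detected in a cell at 1 CPM. Summed over all symbols the values were not equal between cells, from 351255 to 3128330. A given CPM was therefore not the same share of every cell. Where the worth of 1 read could be read from the values, in 37 cells, 1 CPM stood for a median of 12.0 reads (3.67 to 41.5). This worth could not be read in cells 38 and 39, whose values summed to 528479 and 351255. Some results are also given without these cells. No pair among the 741 pairs of cells held identical values. Genes that every cell uses were also at 0 in places: of 12 housekeeping genes 5 had a 0 somewhere, and 35 cells showed such a 0. A 0 is therefore given only as listed at 0.

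Clustering on 99 cell type markers, none of them a Rab, divided the cells into groups of 22, 7, 6 and 4, with a silhouette of 0.39. The 22 cells were cholangiocyte-like, with 5 to 12 of 19 bile duct markers at 100 CPM in each, and the 6 cells were hepatocyte-like, with 23 to 28 of 29 hepatocyte markers. The 7 cells held mesothelial and fibroblast markers together, and the 4 cells held leukocyte markers, in 3 of them with granulocyte ones. Because their leading genes belonged to more than 1 cell type, these 7 and 4 cells are called here the mesothelial-fibroblast marker cells and the blood marker cells. In the cholangiocyte-like cells 1 to 12 hepatocyte markers were also at 100 CPM, with 3 or more in 10 cells. Of the blood marker cells 1 held 9 of 9 macrophage markers. The groups come from the data and not from the labels, so the differences below describe these cells. Another grouping, by rank correlation and average linkage, kept the 6 hepatocyte-like cells but divided the rest along the cell numbers, with cells 14 to 23 and cells 5 to 13 as its largest groups. What the numbers stand for was not given in the sources used here, and their part in the differences was not tested.

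A cell detected a median of 13 of the 43 members (5 to 26), or 30.2% of them, beside a median of 29.7% of all symbols. The share of members was above the share of all symbols in 20 of the 39 cells. At 100 CPM the median was 4 members per cell (0 to 9), and cells 4 and 17 had none. The most members, 26, were in cell 32 of the blood marker cells, which held 4095 genes at 1 CPM. The fewest, 5, were in cell 17, a cholangiocyte-like cell with 1866 genes, whose Rab symbols summed to 12.4 CPM. Cells that held more genes tended to hold more Rabs, and the part of general detection in this spread was not tested.

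**Figure D1:**
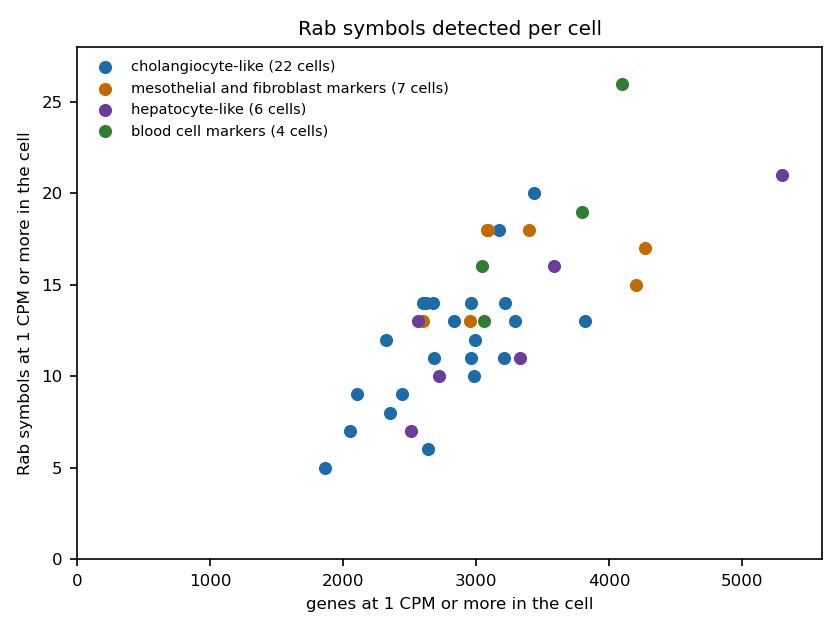
Each point is 1 of 39 cells. The x axis gives the number of genes at 1 CPM or more and the y axis the number of the 43 Rab symbols at 1 CPM or more, with colours for the 4 cell groups; cells with more genes tended to hold more Rab symbols, from 5 in a cell with 1866 genes to 26 in a cell with 4095.

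By group the median number of members detected was 12 in the 22 cholangiocyte-like cells, 17 in the 7 mesothelial-fibroblast marker cells, 12 in the 6 hepatocyte-like cells and 17.5 in the 4 blood marker cells. The median number of all genes at 1 CPM was 2756, 3089, 3024.5 and 3427.5 in the same order, and at 100 CPM 887, 1213, 766 and 1265. The hepatocyte-like cells were near the mesothelial-fibroblast marker cells in the number of genes at 1 CPM but not at 100 CPM. A value of 1 CPM stood for a median of 17.1 reads in the mesothelial-fibroblast marker cells. In the 4 hepatocyte-like cells where this was known, it stood for 4.42 reads. The part of gene number and of read worth in the group medians was not tested. The summed level of the 43 symbols was a median of 0.200% of a cell's total, from 0.000864% in cell 17 to 0.651%. In the median cell 37.6% of that sum belonged to a single member, and in 13 cells more than 50%. The leading member differed from cell to cell, with 25 different members leading at least 1 cell and none leading more than 3.

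**Figure D2:**
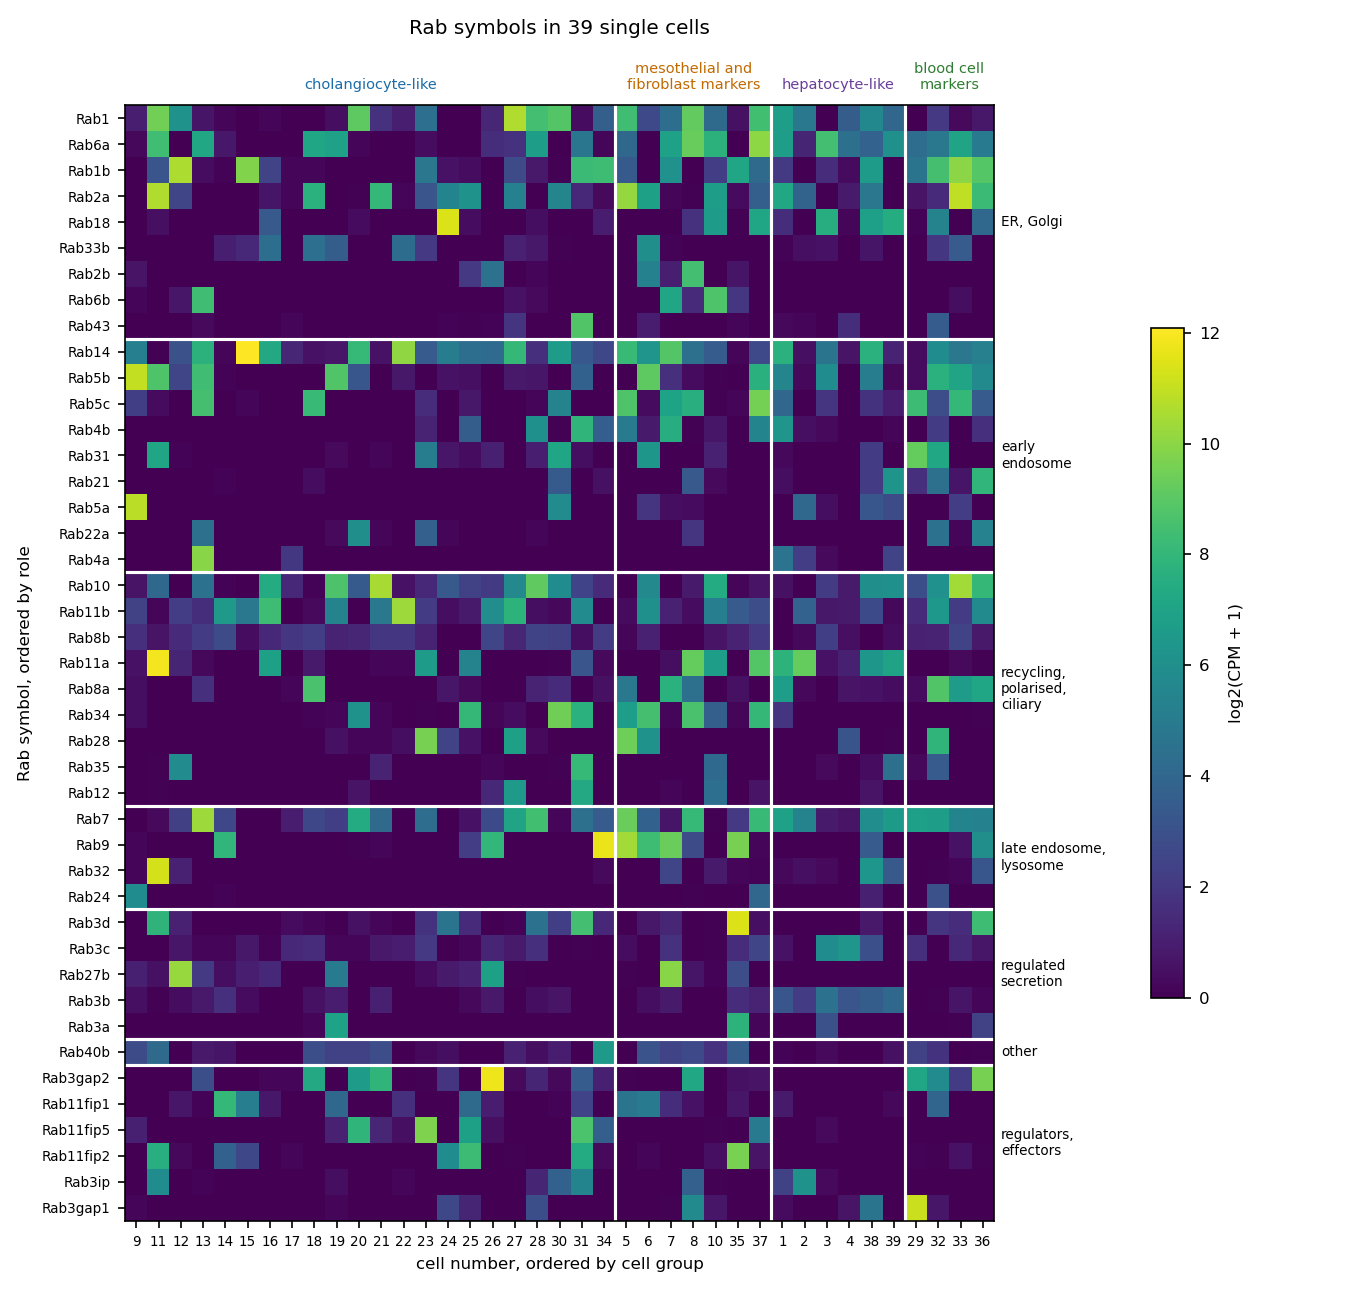
Rows are the 43 Rab symbols by role and columns are the 39 cells by cell group, and colour gives log2(CPM + 1). Rab14 has a value above 0 in all 39 cells, most rows hold a few high cells among many near 0, and Rab3b is at a low level in all 6 hepatocyte-like cells.

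Across cells the members ranged from 4 to 30 of the 39 cells. The median member was detected in 10 cells, beside 9 for all symbols, and reached 100 CPM in 3, beside 2. Members detected in at least 20 cells numbered 9 of 43, or 20.9%, beside 16.3% of all symbols. They were Rab14, Rab7, Rab10, Rab1, Rab8b, Rab11b, Rab6a, Rab1b and Rab2a, which serve the Golgi, endosomes, recycling and the late endosome. At the other end Rab3a, Rab12, Rab24 and Rab43 were detected in 4 cells each, and Rab2b, Rab4a and Rab6b in 5. Members in at most 5 cells made up 16.3% of the family, beside 23.2% of all symbols. Of the 43 members 35 reached 100 CPM somewhere, 81.4% beside 81% of all symbols. Only Rab6a, Rab7 and Rab14 did so in at least 10 cells, 6.98% beside 8.85%.

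Rab14, which acts between the Golgi and early endosomes, was the most widely detected member. Its level was at 1 CPM in 30 cells (95% Clopper-Pearson interval 60.7% to 88.9%), which covers the choice of cells alone. Values above 0 were listed in all 39 cells, as for 3.74% of all symbols, and ran from 0.0654 CPM through a median of 19.8 CPM to 4336 CPM in cell 15. It was detected in 17 of the 22 cholangiocyte-like, 6 of the 7 mesothelial-fibroblast marker, 4 of the 6 hepatocyte-like and 3 of the 4 blood marker cells, so its ranges overlapped in all groups.

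Of the 9 measured members of the route from the endoplasmic reticulum through the Golgi, a median of 3 was detected per cell, and 38 cells held at least 1. Rab1 and Rab1b, which govern transport from the endoplasmic reticulum to the Golgi, were detected in 24 and 20 cells. Either was found in 32 cells and both in 12, where the product of their shares gives 12.3. Rab2a, on the Golgi side of the same step, was detected in 20 cells and its paralog Rab2b in 5. Rab6a, which runs within the Golgi and back to the endoplasmic reticulum, was found in 23 cells, of which 12 were at 100 CPM, the highest number of any member. Its paralog Rab6b was detected in 5 cells, of which 4 also held Rab6a. Rab18 and Rab33b were found in 11 cells each and Rab43 in 4.

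The early endosome list also had 9 measured members. Rab5a, Rab5b and Rab5c control fusion of endocytic vesicles with early endosomes. At least 1 of them was detected in 24 cells and all 3 in 3 cells. Rab5b and Rab5c were each found in 16 cells and together in 10, beside 6.56 from the product of their shares, while Rab5a was found in 7. Rab4a and Rab4b, of fast recycling, were detected in 5 and 11 cells and together in 1. Rab22a was in 6 cells, its relative Rab31 in 10 and Rab21, linked to integrin uptake, in 7.

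Among the 9 members of recycling, polarised and ciliary traffic, Rab10, Rab11b and Rab8b were detected in 25, 24 and 24 cells. Rab11a and Rab11b mark recycling endosomes, and at least 1 was detected in 30 cells and both in 8, beside a product of 8.62. Rab8a, which sends vesicles to the apical membrane and the cilium, was found in 11 cells and together with Rab8b in 6, beside 6.77. Rab34 was in 10 cells, Rab28 in 7, Rab35 in 6 and Rab12 in 4. For the late endosome, Rab7, which leads to the lysosome, was detected in 26 cells. Its value is the sum over 5 transcripts. Rab9, which returns cargo from late endosomes to the Golgi, was in 11 cells, Rab32 in 6 and Rab24 in 4.

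In the regulated secretion list, Rab3d and Rab3c were detected in 14 and 13 cells, Rab3b and Rab27b in 10 each and Rab3a in 4. Rab3 and Rab27 proteins dock secretory vesicles at the plasma membrane. Rab40b, which lies outside these lists, was in 15 cells and never above 87.7 CPM. Of the 6 members that are not GTPases, Rab3gap2 was in 14 cells, Rab11fip1 in 10, Rab11fip5 in 9, Rab3ip and Rab11fip2 in 7 each and Rab3gap1 in 6. Of the 16 paralog pairs, 10, or 62.5%, were found together in more cells than the product of their shares. The product takes all cells to detect genes equally, which they did not, and 54.0% of all pairs of symbols found in 4 to 30 cells were above it too. The products are therefore given as a description, and pairs that share a gene are not independent.

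To see how many main routes were detected in a cell, 4 were counted by at least 1 member at 1 CPM. They were Rab1 or Rab1b, any Rab5, Rab7, and Rab11a or Rab11b. This set was chosen after the values were seen. All 4 were detected in 14 cells, 3 in 11, 2 in 11, 1 in 1 and none in 2. All 4 were detected in 3 of the 22 cholangiocyte-like and 3 of the 7 mesothelial-fibroblast marker cells. They were also detected in 4 of the 6 hepatocyte-like and 4 of the 4 blood marker cells. The median number of genes at 1 CPM was 2756, 3089, 3024.5 and 3427.5 in the same order, and its part in these counts was not tested. A route below 1 CPM may still be present in a cell, and no other set of genes was counted beside this one.

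Levels of different genes were compared per kilobase of transcript. Over all 39 cells the highest median was that of Rab14, with 6.42 CPM per kilobase, followed by Rab7 with 4.70 and Rab6a with 4.09, and then by Rab10, Rab1 and Rab1b with 1.15, 1.13 and 1.02. By the mean the order was different. Rab9 led with 127 CPM per kilobase although its median was 0, since its highest cell reached 2383 CPM per kilobase, and Rab2a with 73.8 and Rab1b with 70.8 came next. The values of neighbours in both orders overlapped across cells. The order by the median also differed between the groups. Rab14 and Rab7 led in the 22 cholangiocyte-like cells, with 4.47 and 2.73 CPM per kilobase. Rab9 and Rab5c led in the mesothelial-fibroblast marker cells, with 225 and 66.1, Rab11a and Rab18 in the hepatocyte-like cells, with 44.0 and 38.7, and Rab1b and Rab5c in the blood marker cells, with 218 and 71.7.

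Some members had values above 0 in many cells and were never high. Rab8b, a paralog of Rab8a, was above 0 in 36 cells and detected in 24, but its highest value was 6.11 CPM. Rab3b, above 0 in 35 cells, peaked at 22.5 CPM, and Rab3c, above 0 in 32, at 77.7 CPM. These were 3 of the 11 members above 0 in at least 30 cells, and 7.0% of the family. Of all symbols 3.27% were above 0 in at least 30 cells and never at 100 CPM, or 16.2% of those above 0 in at least 30 cells. Some of these values were fractions of a read. Among the 37 cells with a known read worth, Rab8b reached at least 1 read, taken as 0.95 of its worth, in 32 of 34 cells above 0, Rab3c in 26 of 31 and Rab3b in 23 of 33. Counted this way, Rab8b alone had at least 30 cells and never 100 CPM, as did 1.64% of all symbols. The share of windows in common with other genes was 5.97% for Rab8b, 8.69% for Rab3b and 1.09% for Rab3c, and the part of shared reads in these values was not tested. In contrast 10 members reached 100 CPM in exactly 1 cell, 23.3% beside 17.1% of all symbols. Examples are Rab5a at 1819 CPM in cell 9, where the next cell had 55.3 CPM, and Rab32 at 2566 CPM in cell 11, next to 81.0 CPM. Rab5b, which has an identical run of 35 coding bases with Rab5a, also had its highest value in cell 9, at 2003 CPM. The part of shared reads in the Rab5a value was not tested.

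**Figure D3:**
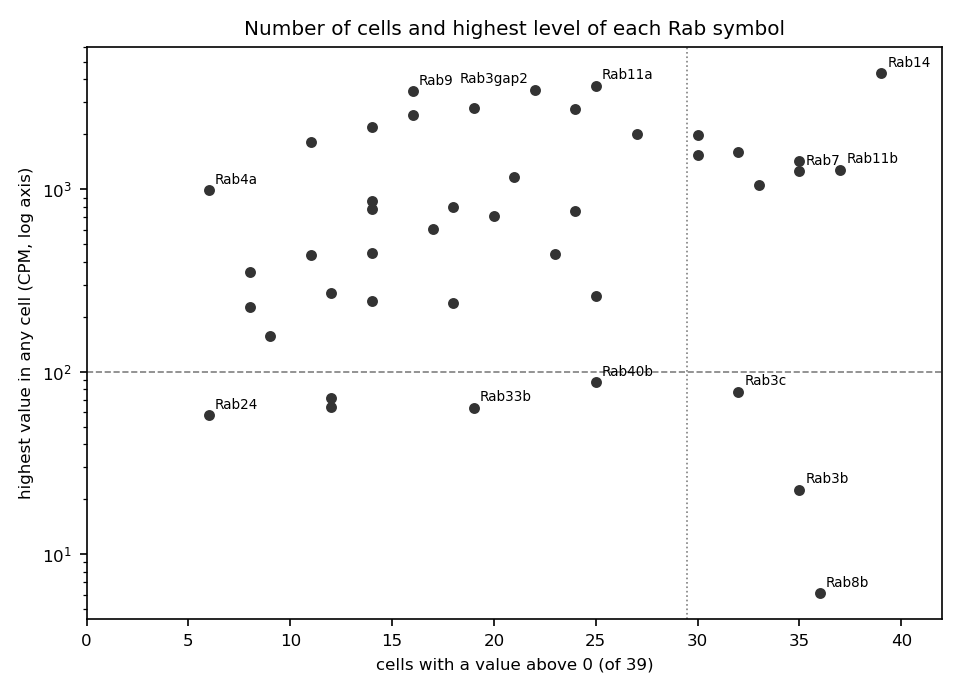
Each point is 1 of the 43 Rab symbols, with the number of the 39 cells above 0 on the x axis and the highest CPM in any cell on the log y axis. The dashed line marks 100 CPM and the dotted line sets apart members above 0 in at least 30 cells. Rab8b, Rab3b and Rab3c lie low at the right, with highest values of 6.11, 22.5 and 77.7 CPM, while Rab14 lies at the top right.

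The cell groups were then compared with all other cells by the difference in mean log2(CPM + 1), and a difference of 2 or more, 4-fold on this scale, was called. Such differences depend both on how many cells of a group hold a gene and on its level in them, and the pseudocount shrinks differences between low values. The part of each was not tested. The 4 comparisons share cells, so they are not independent of each other. Of the 43 members 20 passed in at least 1 comparison. The share of all symbols that did so is not given here, at this or another pseudocount, so the count describes the members alone. With a pseudocount of 10 CPM, which gives low values less weight, 7 passed: Rab9 and Rab34 in the mesothelial-fibroblast marker cells and Rab1b, Rab3gap2, Rab8a, Rab10 and Rab31 in the blood marker cells.

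No member was called higher in the 22 cholangiocyte-like cells, beside 2.8% of all symbols, and 4 were called lower, 9.30% beside 8.5%. None was listed at 0 in every cell of the group, as 1.55% of all symbols were. The median difference of the members was -0.47 on the log2 scale, and that of all symbols -0.27. The lower members were Rab6a, Rab5c, Rab8a and Rab18. Rab6a ran from 0 through a median of 0.157 CPM to 332 CPM in these cells, against 0, 31.4 CPM and 1049 CPM in the 17 others. Cells that held it numbered 8 of the 22 against 15 of the 17, and the difference was -3.19. The 2 ranges overlapped.

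Rab5c differed by -2.56, detected in 5 cholangiocyte-like cells and in 11 of the 17 others. Rab8a differed by -2.20, with 4 and 7 cells, and Rab18, of lipid droplets and the endoplasmic reticulum, by -2.07, with 2 and 9 cells. The single high value of Rab18 in the group was 2784 CPM in cell 24, the highest of any cell. Without the 5 cells with the most genes at 100 CPM, Rab8a and Rab18 were at -1.71 and -1.78 and were no longer called, and without cells 38 and 39 Rab18 was at -1.50.

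Some other members were detected more often in the cholangiocyte-like cells without reaching the threshold, although the median difference of the members was -0.47. Rab11fip5, Rab11fip2 and Rab27b were picked after their values were seen. The share of all symbols with such counts is not given here, so the counts describe these members alone. Rab11fip5, an effector that binds Rab11 on recycling endosomes, was detected in 8 of the 22 and 1 of the 17 others, and its 4 cells at 100 CPM were all in the group, with a difference of 1.56. Rab11fip2, of the same family, was in 6 and 1 cells with a difference of 0.96. Rab27b was in 8 and 2 cells (0.60), Rab8b in 17 and 7 (0.69) and Rab10 in 16 and 9 (0.01). Values of these genes overlapped between the groups.

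The 7 mesothelial-fibroblast marker cells had 6 members called higher, 14.0% beside 11.4% of all symbols, and none lower, beside 2.54%. The median difference was 0.31 for the members and 0.06 for all symbols. Rab9 and Rab34 differed most. No member had every cell of the group above all other cells, beside 0.0895% of all symbols, and Rab4a alone was listed at 0 in all 7, 2.33% beside 7.23%.

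Rab9 was at 1367, 326, 629, 5.77 and 786 CPM in cells 5, 6, 7, 8 and 35, at 0.160 CPM in cell 37 and listed at 0 in cell 10. Thus 5 of the 7 cells held it, beside 6 of the 32 others, and the difference was 4.55. The highest value of all, 3448 CPM, was in cell 34, a cholangiocyte-like cell, so the ranges overlapped. Rab9 shared 13.0% of its windows with a pseudogene annotated as Rab9b-ps1.

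Rab34, which takes part in building the primary cilium, was at 105, 371, 388 and 262 CPM in cells 5, 6, 8 and 37, at 11.8 CPM in cell 10, and at 0.117 and 0.149 CPM in cells 7 and 35. It was detected in 5 of these cells and 5 of the 32 others, with a difference of 4.04. Rab34 shared no window with another gene. At 100 CPM the group held both genes in cells 5 and 6, Rab9 alone in cells 7 and 35, and Rab34 alone in cells 8 and 37.

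The further members called higher in this group were Rab5c (2.96), Rab6b (2.42), Rab1 (2.41) and Rab6a (2.35). Rab5c was at 436, 127, 188 and 755 CPM in cells 5, 7, 8 and 37 and under 0.3 CPM in the other 3. Rab6b was held by 4 cells here, beside 1 of the 32 others, and was at 136 and 437 CPM in cells 7 and 10. For Rab6a the neighbour Mrpl48, with which it shares 20.4% of its windows, was also higher in this group, by 2.83. Without the 5 cells with the most genes at 100 CPM, of which cells 6, 8 and 10 belong here, 10 members were called higher and 5 of the 6 remained, with Rab6b at 1.90. Rab9 and Rab5c then differed by 6.24 and 4.64 and Rab34 by 2.62. The share of all symbols called in this setting is not given here.

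**Figure D4:**
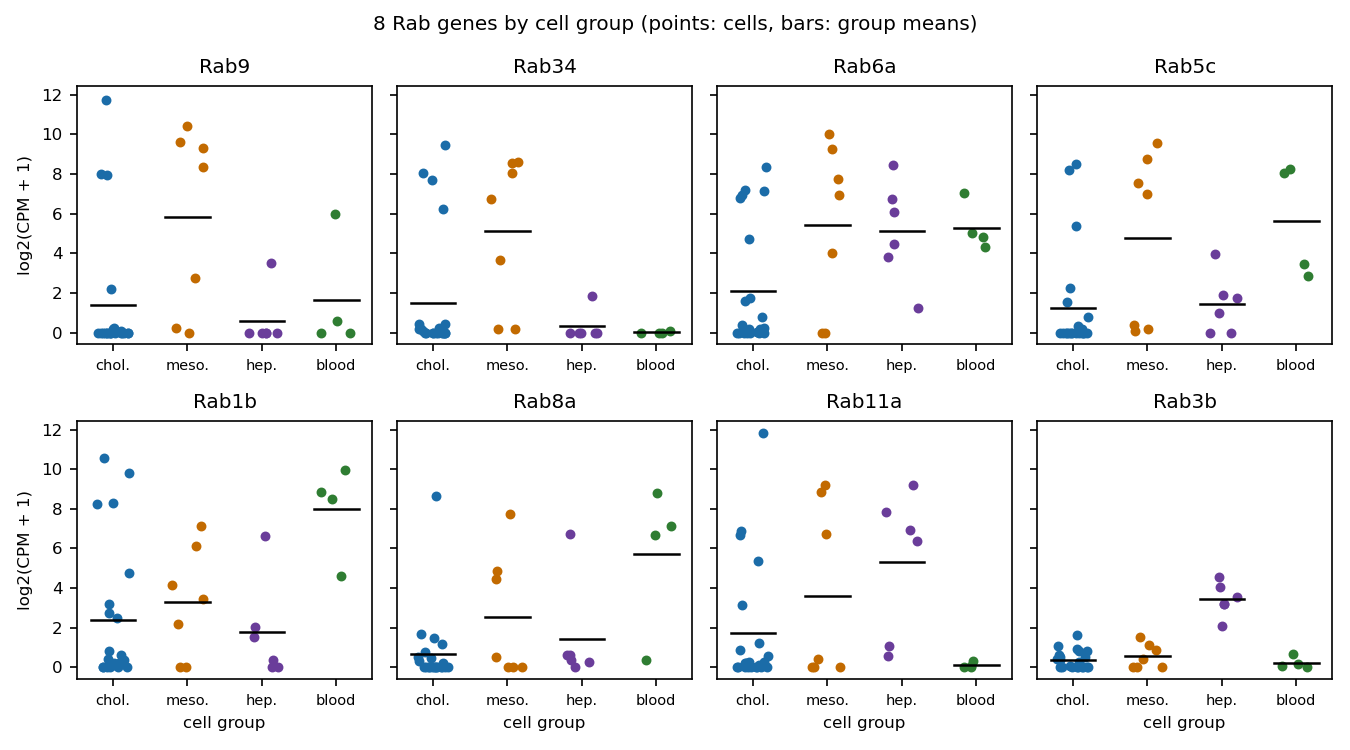
Each point is a cell and each bar the mean of a cell group, on the y axis of log2(CPM + 1), for 8 Rab genes in the 22 cholangiocyte-like (chol.), 7 mesothelial-fibroblast marker (meso.), 6 hepatocyte-like (hep.) and 4 blood marker cells. Rab3b is the 1 gene of the 8 whose group does not overlap the others, with 3.27 to 22.5 CPM in the hepatocyte-like cells and at most 2.06 CPM elsewhere.

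In the 6 hepatocyte-like cells 3 members were called higher, 6.98% beside 11.7% of all symbols, and 1 lower, 2.33% beside 7.54%. The median difference was -0.54 for the members and -0.37 for all symbols. These cells also stood apart in Rn45s, the ribosomal RNA precursor, which took 0.383% to 1.22% of their total against at least 8.42% in every other cell. Rn45s, Lars2 and Rorb took large and unequal shares. Rescaling without them, which also set every cell to the same total, added Rab3c and Rab6a to the members called higher. It put Rab3b at 3.64. The part of the removed genes and that of the common total were not tested apart.

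Rab3b, best known from vesicle release in neurons and endocrine cells, was the only member whose values in a group all lay above those of every other cell. In cells 1, 2, 3, 4, 38 and 39 it was at 8.28, 3.27, 22.5, 8.08, 10.8 and 15.7 CPM. In the 33 others it ran from 0 through a median of 0.212 CPM to 2.06 CPM, and the difference was 3.04. Such a separation was seen for 1 of the 43 members and for 1.76% of all symbols in this group. Its level was low throughout, and with a pseudocount of 10 CPM the difference was 0.99. Rab3c was at 58.4 and 77.7 CPM in cells 3 and 4, its highest values, and at 6.68 CPM in cell 38.

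Rab11a was the member with the largest difference in the hepatocyte-like cells, 3.41. It was at 226, 589, 82.3 and 123 CPM in cells 1, 2, 38 and 39 and at 0.486 and 1.09 CPM in cells 3 and 4. Of the 6 cells 5 held it, beside 9 of the 33 others, and its highest value, 3692 CPM, was in the cholangiocyte-like cell 11. Without cells 38 and 39 the difference was 2.75. Rab11b, in contrast, was detected in 2 of the 6 cells, with a difference of -1.80. Rab6a was detected in all 6 cells, from 1.40 to 356 CPM, with a difference of 1.95.

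Rab18 was at 181, 112 and 179 CPM in cells 3, 38 and 39, at 2.03 CPM in cell 1, at 0.122 CPM in cell 4 and listed at 0 in cell 2, with a difference of 2.64. Without cells 38 and 39 it was 1.03. Rab3gap2, a subunit of a complex that activates the GTPase of Rab3 and exchanges nucleotide on Rab18, was listed at 0 in all 6 cells and was called lower, with a difference of -2.38. It was detected in 14 of the 33 others. Without the 5 gene-rich cells, none of them hepatocyte-like, the difference was -1.99 and no longer called. Being at 0 in all 6 cells applied to 5 members, 11.6%, and to 12.8% of all symbols. The other subunit, Rab3gap1, was detected in 1 of the 6 cells, at 24.0 CPM in cell 38. Iars2, which overlaps Rab3gap2 in sequence, was also listed at 0 in all 6.

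The 4 blood marker cells had the most members called higher, 13 of 43, or 30.2% beside 16.6% of all symbols. A further 3 were lower, 6.98% beside 5.27%. The median difference was 0.19 for the members and -0.08 for all symbols. Without the 5 gene-rich cells, of which cells 32 and 36 belong here, 10 of the 13 remained, with 2 cells of the group left. Their sizes moved: Rab8a was then at 2.37, Rab3gap2 at 3.16 and Rab1b at 4.66, while Rab5c was at 6.24, Rab3gap1 at 5.15, Rab31 at 3.81, Rab2a at 3.03 and Rab6a at 2.62. The share of all symbols called in this setting is not given here, so the count does not show how firm the calls are. No member had all 4 cells above every other cell, beside 0.119% of all symbols. Rab2b, Rab3ip, Rab4a, Rab11fip5 and Rab12 were listed at 0 in all 4, 11.6% of the members beside 15.5%.

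Rab1b had the largest difference of all, 5.53, with 23.8, 366, 1000 and 469 CPM in cells 29, 32, 33 and 36. All 4 cells held it, beside 16 of the 35 others, in which it ran from 0 through a median of 0.516 CPM to 1535 CPM. Its paralog Rab1 differed by -2.95 in the same cells, with 3.01 CPM in cell 32 and at most 0.716 CPM in the others. In the mesothelial-fibroblast marker cells Rab1 was higher by 2.41 and Rab1b differed by 0.31. Rab1 and Rab1b differed by 0.84 and -1.51 in the hepatocyte-like cells and by -0.78 and -1.46 in the cholangiocyte-like cells, below the threshold. The share of Rab1b windows found in another gene was 0.213%, all in Rab1, which GENCODE names Rab1a.

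Rab8a was at 439, 103 and 137 CPM in cells 32, 33 and 36 and at 0.281 CPM in cell 29, with a difference of 4.55. Rab10, of basolateral and insulin-responsive traffic, was at 6.37, 68.9, 1363 and 265 CPM in cells 29, 32, 33 and 36 and differed by 3.85. Rab5c, at 306, 6.16, 265 and 9.93 CPM, differed by 3.67 and Rab5b by 2.78. Rab7 was even in these cells, at 112, 104, 42.6 and 38.4 CPM, with a difference of 2.57. Each of these genes was also high in some cells outside the group.

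Rab3gap2 was detected in all 4 cells, at 136, 55.2, 3.39 and 779 CPM, with a difference of 4.63. Iars2 was detected in 3 of the 4, with a median of 5.32 CPM, at most 8.09 CPM and a difference of 0.79. The part of shared reads in the Rab3gap2 values was not tested. For Rab3gap1 the difference of 2.41 rested on cell 29, at 2185 CPM, since the other 3 cells were under 0.7 CPM. Rab21 (3.20), Rab31 (3.16), Rab2a (2.41), Rab22a (2.03) and Rab6a (2.01) were the remaining members called higher. Rab31 was at 606 and 149 CPM in cells 29 and 32 and listed at 0 in cells 33 and 36. Rab2a was at 1975 and 302 CPM in cells 33 and 36 and under 2 CPM in cells 29 and 32. Without the 5 gene-rich cells Rab5b, Rab21 and Rab22a were at 1.33, 0.75 and -0.39 and were no longer called.

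Rab11a and Rab34 were the other members called lower, with differences of -2.61 and -2.01. Rab11a was at most 0.251 CPM in the 4 cells and Rab34 at most 0.0551 CPM. With so few cells this shows only that neither was detected here, and without the gene-rich cells Rab34 was at -1.56.

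**Figure D5:**
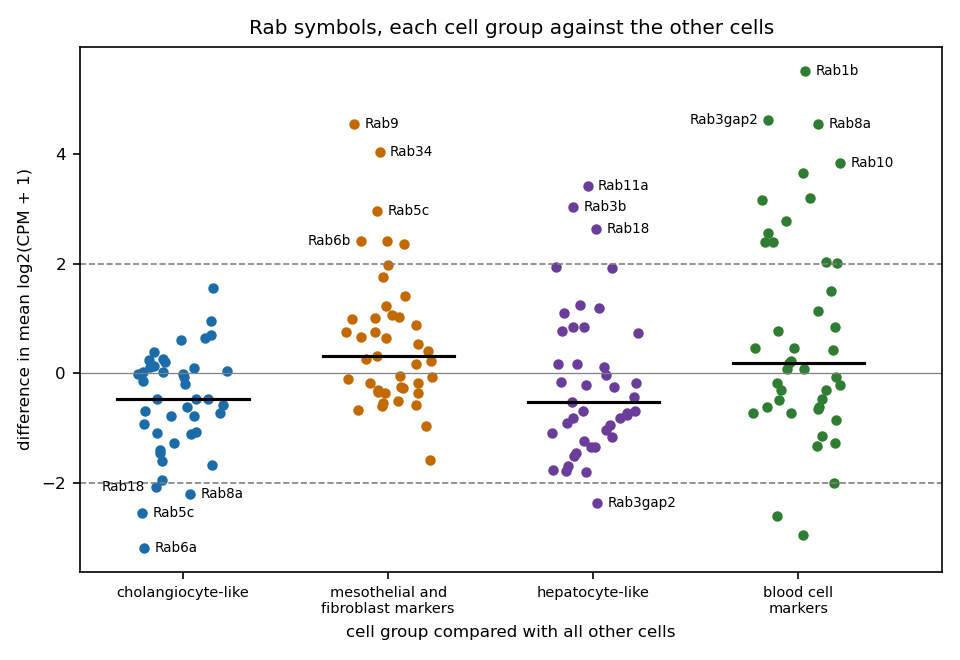
Each point is 1 of the 43 Rab symbols and shows the difference in mean log2(CPM + 1) between a cell group and all other cells, with black bars at the median and dashed lines at 4-fold. The 4 members with the largest absolute difference are named in each group. Points past the upper line number 0, 6, 3 and 13 from left to right, and points past the lower line 4, 0, 1 and 3.

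Genes that act on Rabs were taken from lists by function. Of the 8 genes of prenylation and recycling 7 were measured, with a median of 10 cells. Gdi2, which extracts Rabs from membranes after GTP hydrolysis, was found in 29 cells and was at 100 CPM in 20, a number no Rab reached. Like Rab6a it was called lower in the cholangiocyte-like cells, at -3.16, where 13 of 22 cells held it, and higher in the mesothelial-fibroblast marker cells, at 2.79, where all 7 did. It was the 1 gene of the list called, or 14.3%, beside 8.5% and 11.4% of all symbols. Rabac1, a receptor for prenylated Rabs, was detected in 19 cells.

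Among 30 measured exchange factor genes the median was 8 cells. Dennd5b was detected in all 39 cells at no more than 72.4 CPM, and Trappc9, a subunit of a complex that loads Rabs at the Golgi, in 30. Dennd4c, Trappc5 and Trappc10 were called higher in the mesothelial-fibroblast marker cells, 10% of the list, near the 11.4% of all symbols. In the blood marker cells 7 were called, namely Gapvd1, Dennd5a, Madd, Ccz1, Trappc3, Trappc5 and Trappc10, which was 23.3% beside 16.6%. Dennd5a was at 100 CPM in all 4 blood marker cells and in 4 of the others, with a difference of 6.31. Trappc9 and Trappc1 were called lower in the hepatocyte-like cells, at -4.21 and -2.32, 6.67% of the list beside 7.54%.

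The 20 measured GTPase activating genes had a median of 8 cells, with Tbc1d24 in 20 and Tbc1d13 in 13. Tbc1d13 was detected in all 6 hepatocyte-like cells and differed by 2.98 there, while in the cholangiocyte-like cells it differed by -2.39. Tbc1d2b differed by -2.33 in the cholangiocyte-like cells and by 4.83 in the blood marker cells, where Tbc1d9b (2.92) and Rabgap1l (2.01) were also called. The shares of the list called, 10% lower in the former and 15% higher in the latter, stood beside 8.5% and 16.6% of all symbols, and 5% called higher in the hepatocyte-like cells beside 11.7%.

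The 36 measured effectors had a median of 6.5 cells. Plin3, a lipid droplet protein that binds Rab9, was detected in 36 cells and Exoc8, a subunit of the exocyst tether, in 32. Exoc8 was detected in all 6 hepatocyte-like cells, with a difference of 2.97, and Osbpl1a in 3 of them (2.45). Myo5b, the motor that carries Rab11 vesicles, was higher by 4.05 in the mesothelial-fibroblast marker cells, with 5 of 7 cells, and differed by -2.13 in the cholangiocyte-like cells. Bicd1 (2.87), Plekhm2 (2.21) and Uso1 (2.11) were the other effectors called higher in the former, and Acap2 (5.22) and Plekhm1 (3.91) in the blood marker cells. The tether gene Gcc2 was called lower in the hepatocyte-like and blood marker cells, at -2.75 and -2.24, and Exoc5 in the latter, at -2.30. As shares of the list, 11.1% were called higher in the mesothelial-fibroblast marker cells, beside 11.4% of all symbols, and 5.56% in the hepatocyte-like and blood marker cells each, beside 11.7% and 16.6%. Called lower were 2.78% in the cholangiocyte-like, 2.78% in the hepatocyte-like and 5.56% in the blood marker cells, beside 8.5%, 7.54% and 5.27%.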

How the data were processed

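Single-cell RNA-seq values of 39 cells were used. The authors deposited log2 values, and Bowtie 0.12.9, eXpress 1.5.1, edgeR and the build mm9 are named in the submitters' processing notes, with no order or settings. The lowest value, -2.58, was the same in all cells and was taken as no reads. Linear values, called CPM, are 2 to the power of the deposited value, less 0.167. The log base and this unit were inferred from the values. Transcripts were summed per symbol. No transcript passed 0.5 CPM in fewer than 2 cells. Detection was 1 CPM, the pseudocount 1 CPM and a called difference 2 on the log2 scale.

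Cells were grouped by Ward linkage on log2(CPM + 1) of the markers, with 2 to 6 clusters of at least 3 cells and the highest silhouette. Values were given for the 10 members found in most cells, those found in fewest, those called in a group and the paralogs; of the partner lists, the 2 genes found in most cells and those called. Other members, including Rab11fip5, Rab11fip2, Rab27b, Rab3c, Rab32 and Rab5a in part, were named after their values were seen. The members and lists were chosen with earlier results of these data known. No doublet caller was run and no cell was removed. Intervals cover the choice of cells alone, and molecular identifiers are not named in the labels, so reads may not be independent molecules. Transcript lengths and shared windows came from GENCODE M21 (GRCm38), matched by RefSeq accession for 53 of 53 transcripts; since that build differs from mm9, no genome coordinates are given. The group comparison was also run on simulated data, with values permuted over cells and chosen genes raised in every cell of a group. Raised genes then had no zeros in the group, unlike these data, so the run does not show how the call performs here. Python 3.11.15, numpy 2.4.6, pandas 2.3.3, scipy 1.17.1 and scikit-learn 1.9.0 were used.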

Additional observations from a re-analysis of the deposited data

How the results depend on the processing

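Alternatives to the threshold, pseudocount, scaling, transcript sum, filter, cells and grouping were planned; leaving out the 5 cells with the most genes at 100 CPM, and counting whole reads in place of any value above 0, which left 1 of 3 low and widely listed members, were chosen after seeing the data. With any value above 0, a cell held a median of 23 members in place of 13, and the median member was in 19 cells in place of 10; at 100 CPM these were 4 and 3, and 5 paralog pairs in place of 10 shared more cells than the product. The number of members called in any group was 20, and 32 with a pseudocount of 0.1 CPM and 7 with 10 CPM. The counts of called members in this section stand without the shares of all symbols, so they describe the members alone. With 0.1 CPM the cholangiocyte-like cells had 1 higher and 9 lower, the mesothelial-fibroblast marker cells 1 lower, the hepatocyte-like cells 8 higher and 9 lower and the blood marker cells 5 lower. With 10 CPM the cholangiocyte-like cells had 0 lower, the mesothelial-fibroblast marker cells 2 higher (Rab9 and Rab34), the hepatocyte-like cells 0 higher and 0 lower and the blood marker cells 5 higher and 0 lower. Rescaling, which also set every cell to the same total, gave 5 higher in the hepatocyte-like cells. Leaving out cells 38 and 39 gave 4 lower there. Without the 5 cells the cholangiocyte-like cells had 2 lower, the mesothelial-fibroblast marker cells 10 higher and 1 lower, and the hepatocyte-like cells 0 lower, and Rab22a turned to -0.39 in the blood marker cells. These pseudocount shifts follow from the weight given to low values; the cause of the others was not tested. No paired analysis was possible because the cells form 1 group. Average linkage on rank correlation gave 6 groups, of which the 6 hepatocyte-like cells alone were the same, with 19 members called in any.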
